A study of Macaca mulatta with 23 samples.

Results

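The regions described here are runs of closely spaced CpG positions whose level, averaged over positions and monkeys, lay near the middle of the methylation scale: 248 runs holding 6739 of the 444312 positions in the table. Autosomal positions at most 200 bp apart were joined, and of the 4844 runs with 20 to 49 positions and values in at least 20 monkeys, members were chosen by their measured level, a mean over monkeys of 40 to 60% with an SD over monkeys of at most 10 points. A monkey's level for a run is the unweighted mean of its values there, so it depends on which positions had a value. Because the rule used them, level and SD over monkeys are given as a description and were not tested. The question asked of each run was whether it is uniform, a step from low to high, or neither.

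The samples were genomic DNA of the central amygdala nucleus of 23 young rhesus monkeys (Macaca mulatta), 1 library each, 11 from the left and 12 from the right hemisphere. Each monkey is labelled with 1 hemisphere, and no treatment, genotype or control group is given. The continuous trait scored in all of them was anxious temperament, from -1.48 to 1.43, and ages ran from 1.1 to 2.13 years. Methylation was read by reduced representation bisulfite sequencing, in which MspI cuts the DNA at CCGG and short CpG-rich fragments are sequenced after bisulfite conversion. The tissue was not sorted by cell type, so a value is an average over all cells sampled.

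CpG methylation in mammals tends towards extremes: dense CpG islands at promoters are mostly free of it, and most other CpGs carry it on nearly every DNA molecule. A level near the middle can arise at imprinted loci, where the copy from a single parent is methylated, in tissues that mix cell types, or at the border of an island, where methylation falls over a short distance. Each CpG is palindromic, and maintenance methylation normally copies the mark to both strands, so that the strands of a CpG read alike. Gene names are not given here, because no annotation of the human build that carries the coordinates (hg19) was used. No sequence is shown for the same reason.

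The libraries differed little in their mean level over these runs and more in the values they lacked. The mean over the runs was lowest in right 11 at 49.6%, had a median of 51.9% and was highest in left 3 at 53.9%. Left samples averaged 51.9% ± 1.25 (SD, n = 11). Right samples averaged 51.6% ± 1.47 (SD, n = 12), and the 2 ranges overlapped. Left 3 lacked 63.9% of the values in the runs, right 9 lacked 27.2%, left 4 lacked 24.3%, right 4 lacked 14.1% and right 12 lacked 12.3%, against a median of 1.97% over all monkeys. Left 3 and right 9 were the libraries that lacked more than 20% of the values in the whole table. In right 9, 54.5% of the values present were exactly 0 or 100%, against a median of 14.1%. Its profile over the positions had a median correlation with the other monkeys of 0.755, where the median of the 23 libraries was 0.958; these points share their positions and are given as a description. Read depth is unknown for all libraries. Without left 3 and right 9 the same rule found 266 runs, of which 243 were among the 248. With only positions that had a value in all 23 monkeys, the rule found 39 runs, and 14 of them began at the same position as a member.

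None of the 248 runs was uniform. A run was called uniform when the means of its positions, each taken over monkeys, had an SD of at most 10 points. The smallest SD of position means was 15.9 points, the median 29.3 and the largest 45.6. A run was called a step when a single break with at least 5 positions on each side separated means at least 40 points apart and took up at least 50% of the variance between positions. That held for 15 runs (6.05%), and the other 233 (94%) were mixed. Among the neighbouring classes of runs, drawn up by the same rule with other means, steps made up 17 of 217 runs at 20 to 40%, 17 of 738 at 60 to 80% and 1 of 209 at 80 to 100%. Uniform runs made up 2, 0 and 3 of these, and 3176 of the 3318 runs at 0 to 20% were uniform. Both limits are in points, so a class near an end of the scale has less room for spread or for a step. The runs at 0 to 20% had a median mean of 1.27% and a median SD of position means of 1.12 points. Their count is thus largely set by their level and is no comparison of shape. Of the 114 runs kept apart by an SD over monkeys above 10 points, whatever their mean, 7 were uniform and 11 were steps.

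Single positions within the 248 runs covered the whole scale. Of their 6739 positions, 41.3% had a mean between 30 and 70%, 20.0% lay under 20% and 20.8% over 80%. In the runs at 60 to 80% these shares were 15.6%, 13.7% and 56.4%, and in those at 20 to 40% they were 37.9%, 36.9% and 2.06%. In 218 of the 248 runs at least 1 position lay over 80% and another under 20%. At least 50% of the positions lay between 30 and 70% in 83 runs, and no position did in 8 runs. In 16 runs 80% or more of the positions were either under 20% or over 80%, and in 49 runs 80% or more lay from 20 to 80%. Middle levels were also read within single monkeys: the share of a library's values between 30 and 70% ran from 20.5% in right 9 to 40.8% in left 11, with a median of 37.6%.

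**Figure D1:**
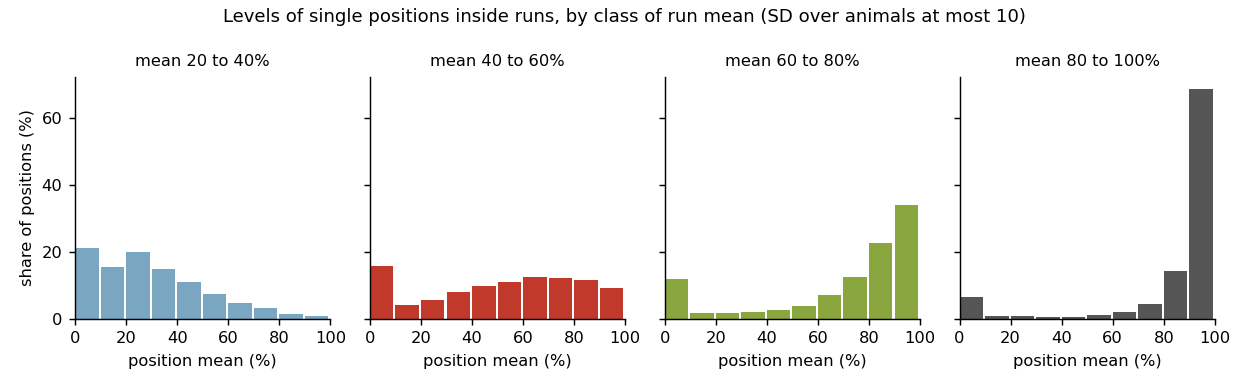
Share of positions (y axis, percent of the positions in the class) by the mean of a position over monkeys (x axis, in bins of 10 points) for runs of 20 to 49 positions with a mean of 20 to 40%, 40 to 60%, 60 to 80% and 80 to 100%. The 40 to 60% class is spread over the whole scale, with 15.8% of its positions under 10%, and no bin near 50% stands out.

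The runs had a median of 24 positions and a median width of 241 bp, with 10.9 positions per 100 bp. The runs at 60 to 80% had 12.6 and those at 0 to 20% had 17.4 positions per 100 bp. Members lay on 21 of the 22 autosomes, and chromosome 19 held 33 of them (13.3%), compared with 9.31% of all 4844 runs, 15.0% of those at 60 to 80% and 19.1% of those at 80 to 100%. Within 5 Mb of a chromosome end lay 50 members (20.2%), compared with 16.6% of all runs and 24.1% of those at 60 to 80%. The most frequent bands were 16p13.3 and 19p13.11 with 6 members each. Chromosomes, bands and chromosome ends are those of the human build and not of the macaque genome. These shares are descriptions.

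The most even run was chr16:57831860-57832180 (hg19, band 16q21), with 33 positions over 321 bp. Its level was lowest in left 3 at 34.9%, had a median of 45.7% and was highest in right 9 at 63.2%, so that the extreme monkeys were the libraries lacking most values. Its position means ran from 10.6% to 82.2% with an SD of 15.9 points, and 81.8% of them lay between 30 and 70%.

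The next most even, chr2:72371255-72371347 (band 2p13.2), had 22 positions within 93 bp and a level from 34.1% in right 8 to 69.0% in left 3, with a median of 47.9%. The 20 positions after its first CpG ran from 32.0% to 70.5%, with a median of 50.02%. The first CpG alone was lower, at 17.8% on its outer and 2.95% on its inner position. The runs chr5:157078342-157078476 (5q33.3), chr17:55752041-55752343 (17q22) and chr11:65123270-65123551 (11q13.1) came next, with SDs of position means of 16.4, 18.2 and 18.4 points. In these 5 runs 75% to 86.4% of the positions lay between 30 and 70%. Middle levels thus filled most of each run, but with differences between positions above the limit for a uniform run.

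At the other end, the 3 least even runs reached a middle mean from positions that were nearly all high or nearly all 0. In chr9:139301684-139301807 (9q34.3), 14 of 22 positions had means from 71.3% to 98.1% and 8 had means from 0 to 5.65%. Its level over monkeys was 58.0% ± 2.45 (SD, n = 23), lowest in left 4 at 51.6%, with a median of 58.3%, and highest in right 8 at 63.4%. In chr16:72141233-72141560 (16q22.2), whose SD of position means was the largest at 45.6 points, 8 of 21 positions were under 10% and the others averaged 92.8%.

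In chr16:314618-314987 (16p13.3), 10 of 22 positions had means from 80.3% to 96%, 10 had means from 0 to 7.11%, and 2 lay at 17.1% and 23.0%. This run also had the smallest SD over monkeys, 1.35 points around 43.9% (n = 23), from 41.6% in left 6 to 46.6% in right 2. Its 10 lowest positions had no value above 21% in any monkey, and its 10 highest none below 34%. The next smallest SDs were 1.64 points at chr5:140735426-140735853 (5q31.3, mean 46.4%) and 2.12 points at chr15:91424510-91425064 (15q26.1, mean 59.7%). The latter again joined 18 positions from 82.2% to 97.3% with 9 positions from 0 to 6.95%, and held 11 between these. The former held 6 positions from 81.6% to 86.8% and 5 under 10%, but 20 of its 31 positions lay between these, with a median of 43.9%.

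**Figure D2:**
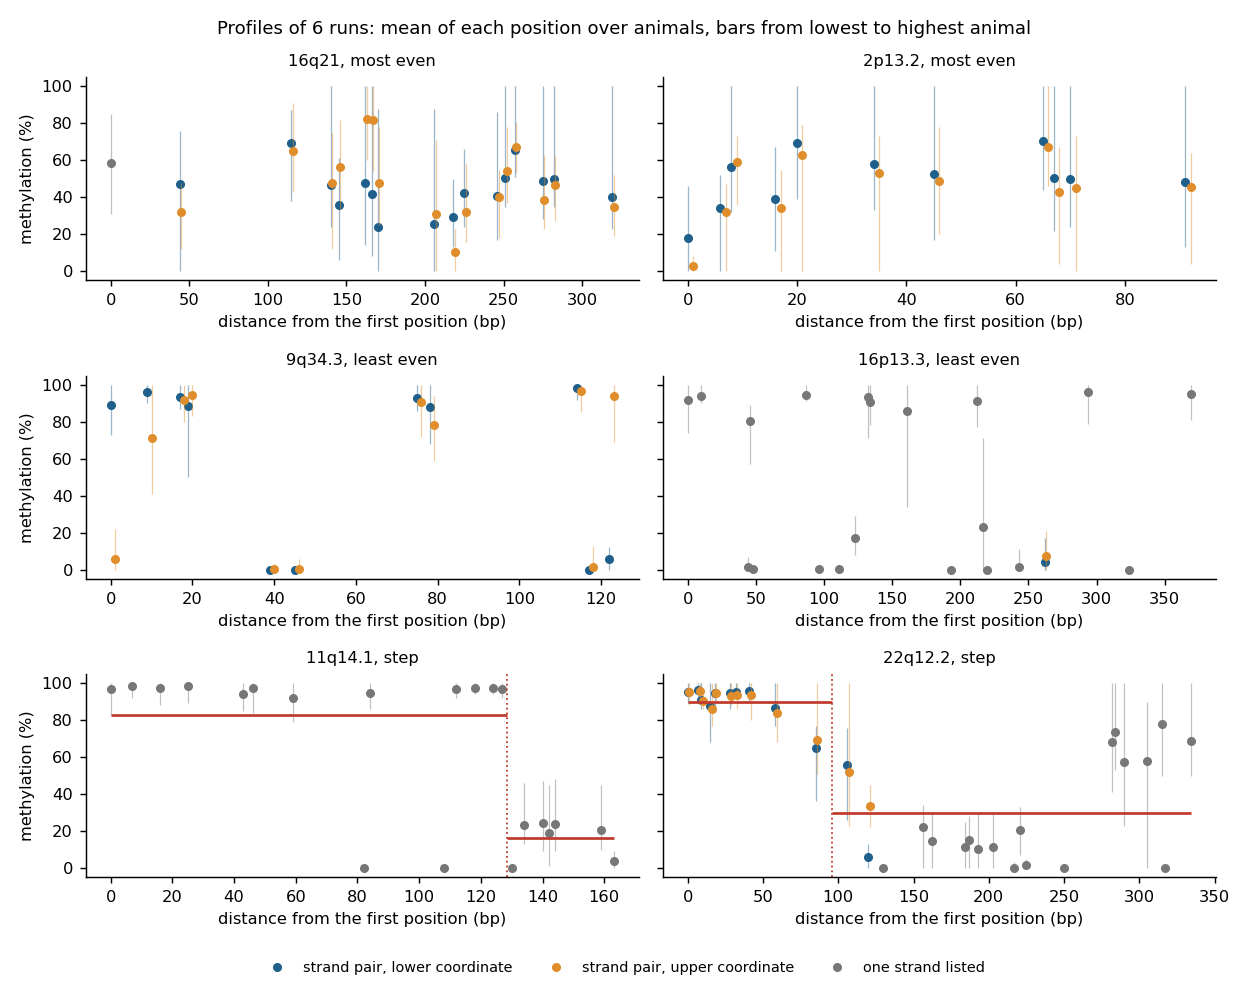
Methylation in percent (y axis) against the distance from the first position in bp (x axis) for 6 runs named by their band: the 2 most even, 2 of the least even, and 2 steps. Points are means over monkeys, vertical bars run from the lowest to the highest monkey, colours mark the strands of a CpG, and red lines show the side means and break of a step. The 9q34.3 and 16p13.3 runs hold positions near 0 between positions above 80%, and the 22q12.2 run rises again after its low part.

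The 15 steps had side means 43.5 to 66.2 points apart, with a median of 50.4. Levels rose with the coordinate in 5 and fell in 10. The low side had a median of 22.1% and ran from 9.10% to 37.5%, and the high side had a median of 73.3% and ran from 56.1% to 92.2%. The low side lay under 20% in 7 runs and the high side over 80% in 5, and 1 run met both. The break lay at the widest gap of the run in none of the 15, and the gap at the break ranged from 1 to 103 bp.

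The step was then read in each monkey at the break found from all other monkeys. The difference had the same sign in all 332 readings and reached 20 points or more in 331, the exception being right 9 at chr19:577838-578067 (19p13.3), at 18.4 points. The same break was found in 331 readings. The low-side and high-side values of the monkeys did not overlap in 14 runs and did overlap in chr22:46263053-46263196 (22q13.31). The runs were classed as steps on the mean profile of these same monkeys, so the readings show how alike the monkeys were and are no independent test of the class.

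The largest step was chr11:78614398-78614561 (11q14.1), with 21 positions listed on a single strand each. Its first 14 positions averaged 82.7% and its last 7 averaged 16.5%. In the first part 12 positions had means from 92% to 98.7% and the other 2 were at 0 in every monkey with a value. The high side ran over monkeys from 72.1% in left 3 to 84.3% and the low side from 9.29% to 33.6%. Left 3 lacked 63.9% of the values in the members. A side mean shifts with the positions that have a value, since those at 0 then weigh more or less. The part of missing positions in these ranges was not tested. The step size ran from 50.7 points in right 12 to 72.8 in left 6, so that all 23 monkeys showed it.

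In chr11:824351-824742 (11p15.5), 6 positions at 92.2% were followed by 23 at 30.4%, and the difference was 52.2 points in left 4, 60.8 in the median monkey and 80 in right 9. In chr3:112357212-112357773 (3q13.2) the level rose from 26.6% over 12 positions to 84.99% over 10, across a gap of 103 bp. In chr12:111891453-111891691 (12q24.12) it fell from 65.0% over 16 positions to 11.5% over 10. This run had the largest SD over monkeys of all 248, 9.85 points. Its levels ran from 21.7% in right 9 to 64.2% in left 4, libraries that lacked 27.2% and 24.3% of the values in the members. The run's median level was 40.9%. Its step was nevertheless 42.3 points or more in each of the 22 monkeys with enough values, and right 9 was not among them.

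The step at chr22:29704112-29704446 (22q12.2) had side means of 89.9% over 20 positions and 29.9% over 22, but it was not a single fall. Its first 18 positions had means from 84.1% to 96.2%, and 11 positions in its low part had means from 0 to 22.0%. Of the 7 positions beyond them, 6 had means from 57.2% to 77.8% and 1 was at 0 in every monkey with a value. A run of 50 or more positions lay 3035 bp away, the nearest to any of the 15 steps. Within 2 kb of such a dense run lay 7 of the 248 members (2.82%) and none of the steps. The share was 6.09% in runs at 0 to 20%, 5.07% at 20 to 40%, 2.98% at 60 to 80% and 2.87% at 80 to 100%. Within 5 Mb of a human chromosome end lay 6 of the 15 steps (40%), compared with 18.9% of the mixed runs.

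**Figure D3:**
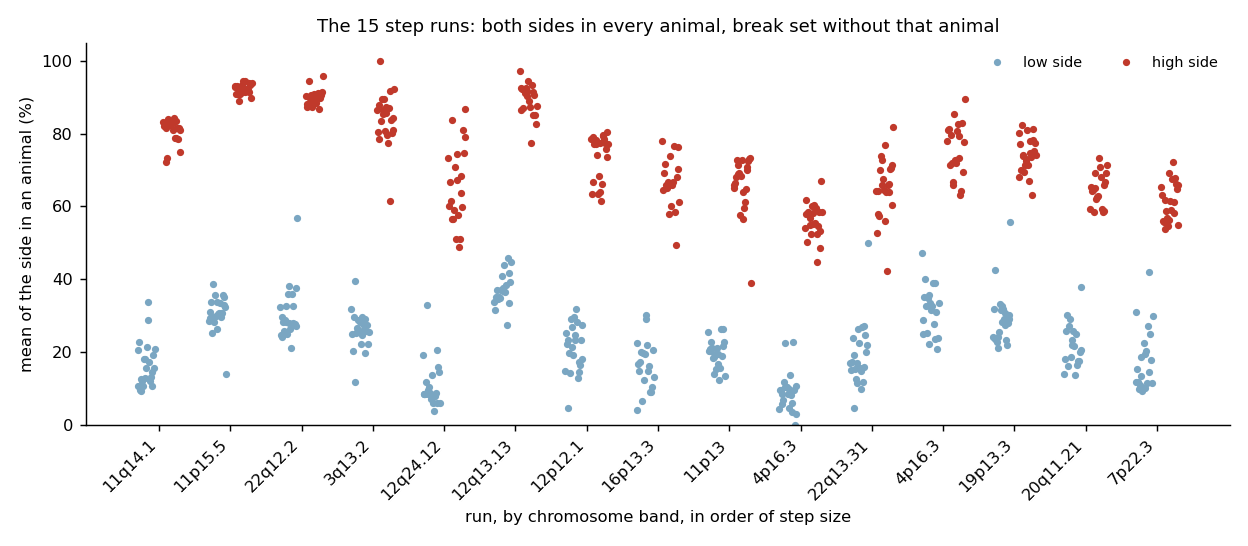
Mean methylation of the low side (blue) and the high side (red) of the 15 step runs (y axis, percent), 1 point for each monkey and side, with the break found from the other monkeys; runs are ordered on the x axis by step size and named by band. The sides are apart in 14 runs and overlap in the 22q13.31 run.

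The strands of a CpG mostly read alike inside the runs. Positions 1 bp apart were taken as the strands of 1 CpG, and the 2138 such pairs that did not lie at a run's end differed by a median of 4.51 points. Neighbouring CpGs differed more: the median difference was 12.5 points at 2 to 10 bp, 15.3 at 11 to 30 bp, 16.1 at 31 to 100 bp and 21.6 beyond 100 bp. CpGs drawn from anywhere in the same run differed by a median of 19.8 points. These pairs share libraries and runs and are given as a description.

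Among the 207 runs with at least 5 inside pairs, 11 had a median absolute difference between strands of 30 points or more. In 6 of these the signed mean stayed under 30 points, and whether the sign changed from pair to pair was not counted. Among these 6, chr5:19803952-19804268 (5p14.3) had a median absolute difference of 67.6 points and a signed mean of 2.88 points over 6 pairs. Its pairs thus differed in sign. In the other 5 the signed mean was also 30 points or more, so that the same strand was the higher one on average along the run. In chr9:6668805-6668928 (9p24.1), the position at the lower coordinate averaged 28.2% over 9 pairs and that at the upper coordinate 74.6%. The lower-coordinate mean ran over monkeys from 7.67% to 51.0% with a median of 27.4%, and the upper-coordinate mean from 65.6% to 85.8% with a median of 74.4%. The upper one was higher in 23 of 23 monkeys, and the ranges did not overlap. In chr12:10341346-10341611 (12p13.2) the order was the opposite, with 71.5% at the lower and 34.0% at the upper coordinate over 7 pairs, in 21 of 21 monkeys. In chr1:34090633-34090815 (1p35.1) the values were 32.6% and 71.7% over 10 pairs, with the upper coordinate higher in 22 of 23 monkeys. In chr2:8723715-8723904 (2p25.1) they were 47.2% and 78.7% over 8 pairs, with the upper coordinate higher in 22 of 22 monkeys. In chr17:18024160-18024301 (17p11.2) they were 88.6% and 53.4% over 9 pairs, with the lower coordinate higher in 17 of 17 monkeys. In both of these runs a high strand stood beside one near the middle. Runs of the other classes with at least 5 inside pairs were counted too. A signed mean of 30 points or more held in 1 of 188 at 20 to 40% and 4 of 670 at 60 to 80%. It held in 0 of 193 at 80 to 100% and in 0 of 92 with an SD over monkeys above 10 points. Whether reads of both strands came from the same locus was not tested.

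The CpG at the end of a run stood apart. In 300 cases the first or last positions of a member were a pair, and the outer position had a median of 49.4% (quartiles 29.7 and 70.9%), whereas the inner position had a median of 3.95% (quartiles 2.64 and 8.61%). The inner position was the lower one in 137 of 147 first pairs and 146 of 153 last pairs, and it lay under 10% in 231 of 300 pairs, the outer one in 17. The other classes showed the same order: in runs at 60 to 80% the medians were 84.5% and 4.87%, and in runs at 80 to 100% they were 93.4% and 5.33%. Across monkeys the median of the outer positions ran from 32% in right 9 to 62% in left 4, and that of the inner positions from 0 to 5%. The inner position was lower in 61.3% of pairs in right 9 and in 86.6% to 93.2% in the other 22 libraries.

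Per the labels' protocol, the MspI fragments were end-repaired before adapters were ligated. As background, end repair fills in the cut ends with unmethylated cytosines, which read as 0 after bisulfite treatment. Cut sites were not located here, and the part of this step in the low inner positions was not tested.

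**Figure D4:**
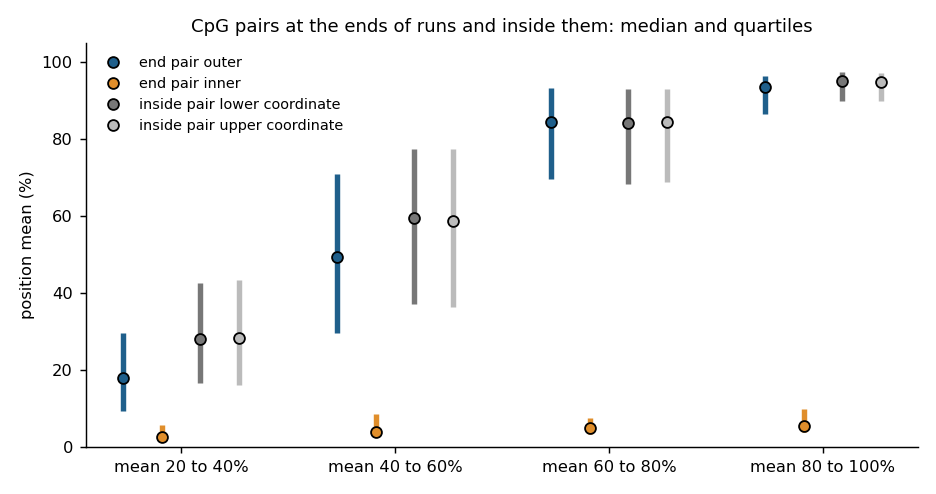
Median (points) and quartiles (bars) of position means in percent (y axis) for outer and inner positions of CpG pairs at the ends of runs, and for both strands of pairs inside runs, in 4 classes of run mean (x axis). The median of the inner end position is 2.56% to 5.33% in the 4 classes, while the other medians follow the class.

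Positions under 10% numbered 1064 (15.8% of the members' positions), and 244 of the 248 runs had at least 1. Of these positions, 231 were the inner position of an end pair, 352 belonged to inside pairs with both strands under 10%, 88 to inside pairs with only 1 strand under 10%, 289 were listed on 1 strand, and 104 lay elsewhere at the ends. Every value was under 10% at 601 of the 1064 positions and exactly 0 at 184. In 57 runs an inside CpG had both strands under 5% while its neighbours were at 50% or more. There were 75 such CpGs, 3.51% of the inside pairs, and 42 of them had no value of 10% or more in any monkey. In the runs at 60 to 80% such CpGs made up 4.44% of inside pairs. As background, a cytosine of the human sequence that is thymine in the macaque can read as unmethylated. Whether these positions are CpGs in the macaque was not tested.

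Leaving out positions under 10% can only raise the mean of these runs, and the size of the rise was read. The mean of the position means had a median of 52.7% over the 248 runs with all positions, 54.9% without the inner end positions, and 61.9% with positions at 10% or more only. In the first case 3 runs were over 60%, since missing values weigh differently in a mean over positions and in a mean over monkeys. Without the inner end positions 36 runs were over 60%, and with positions at 10% or more 141 were, 13 of them over 80%. The other 107 stayed between 40 and 60%. With positions at 10% or more, 8 runs met the limit for a uniform run, and 0 of these 8 had a mean of 40 to 60%. They were led by chr10:73039635-73039802 (10q22.1), at 62.8% with an SD of position means of 6.36 points, and 3 of them had means of 80% or more. Read in the same way, 16 of 217 runs at 20 to 40% were uniform, 2 of them with means of 40 to 60% at these positions. At 60 to 80% 94 of 738 were uniform, and at 80 to 100% 86 of 209, where the top of the scale leaves less room for spread. Of the 114 runs with an SD over monkeys above 10 points 19 were uniform, 3 of them with means of 40 to 60%.

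**Figure D5:**
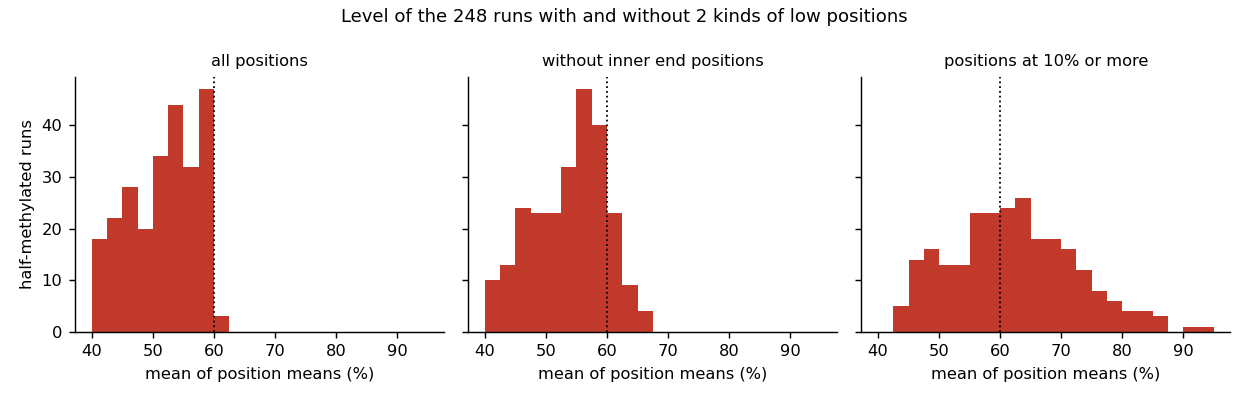
Number of the 248 runs (y axis) by the mean of their position means in percent (x axis, bins of 2.5 points) with all positions, without the inner end positions, and with positions at 10% or more only; the dotted line marks 60%. The medians are 52.7%, 54.9% and 61.9%.

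The runs with most spread between monkeys after the 12q24.12 step were chr5:19803952-19804268 (5p14.3), with 54.2% ± 9.52 (SD, n = 22), and chr19:41115518-41115740 (19q13.2), with 59.7% ± 9.50 (SD, n = 23). The 19q13.2 run went from 30.3% in right 9 to 87.1% in left 3, with a median of 60.3%. Its extremes were thus the libraries lacking most values, and its position means had an SD of 24.9 points. The part of missing positions in this spread was not tested. The 5p14.3 run went from 32.7% in right 11 to 68.9% in right 8, with a median of 55.6%. Over all 248 runs the median SD over monkeys was 5.79 points, compared with 3.92 in the runs at 60 to 80% and 5.16 in those at 20 to 40%. The longest member, chr5:149546598-149546988 (5q32), had 48 positions, a level of 50.4% ± 6.74 (SD, n = 23), and inside strands that differed by a median of 21.9 points.

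The limits of the rule did not fall at gaps in the values. Just inside 40% lay chr14:59930591-59930875 at 40.17% and chr11:68967952-68968261 at 40.20%, and just outside lay chr19:49564802-49565026 at 39.98% and chr16:85482380-85483204 at 39.87%. Just inside 60% lay chr20:36147141-36147331 at 59.996% and chr2:220404530-220404692 at 59.99%, and just outside lay chr15:90171708-90171898 and chr11:130338382-130338517, both at 60.04%. The SD limit of 10 points fell between 9.52 and 9.85 points inside, at the 5p14.3 and 12q24.12 runs, and 10.02 points at chr19:55944488-55944765 and 10.15 points at chr9:136448942-136449050 outside. With any SD, 288 runs had means of 40 to 60%.

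The rule did not use score, age or hemisphere, and the levels of the members were tested against them. The tested levels are those the rule read, and its limit on the SD over monkeys bounds any slope: 40 runs with means of 40 to 60% and a larger SD are not members, so a low count of calls among members is in part set by the rule. The limma fits covered all 21254 runs of 3 or more positions with enough values and a range of at least 5 points. These included runs on the sex chromosomes, and sex was not in the model. The p-values were adjusted over all of these runs by the Benjamini-Hochberg method. For the score with age as covariate, 0% of the runs and 0 of the 248 members had an adjusted p under 0.05. At an unadjusted p under 0.05 stood 3.2% of the runs and 7 members (2.82%), 4 with levels higher and 3 with levels lower at higher scores. The members' share was near the background. The count was 4 members without right 11 and 12 without left 3 and right 9. Their median slope was -0.04 points per unit of score, and -0.01 over all runs tested, and the median standard error of the members' slopes was 1.66 points.

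The smallest p for the score among members was at chr19:19371786-19371901 (19p13.11, 24 positions). Its level ran from 41.2% to 54.9% in left samples with a median of 45.8%, and from 39.1% to 55.7% in right samples with a median of 45.6%. The slope was 4.34 ± 1.13 points per unit of score (standard error, n = 23, limma adjusted p = 1.00). The next were chr4:6107546-6107720 (4p16.1), with -2.81 ± 1.10 points, and chr12:3318847-3319159 (12p13.32), with -4.16 ± 1.66 points (limma adjusted p = 1.00 for both, n = 22). Single positions gave the same picture: of 192151 tested, 0% had an adjusted p under 0.05 in limma and 3.12% an unadjusted one, and of the 5042 that lay in members 0 and 156 (3.09%) did.

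For age, with the score in the model, 0.0565% of the runs (12 of 21254) and 0 members had an adjusted p under 0.05 in limma. At an unadjusted p under 0.05 stood 4.81% of the runs and 9 members (3.63%), 8 of them higher at greater age. Without left 1, the oldest monkey at 2.13 years, 1 member was left at that unadjusted threshold. Without right 9 and left 3 there were 16. The smallest p was at chr16:30102139-30102559 (16p11.2), where levels ran from 39.0% to 55.4% in left samples (median 43.1%) and from 37.9% to 53.8% in right samples (median 45.03%). Its highest level was that of left 1. The slope was 12.5 ± 3.84 points per year (standard error, n = 22, limma adjusted p = 0.645). The next were chr1:182025649-182025951 (1q25.3), with 21.0 ± 7.31 points per year and left 1 highest at 70%, and chr11:61511763-61511891 (11q12.2), with 14.7 ± 5.26 points per year (n = 23, limma adjusted p = 0.814 and 0.842).

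For hemisphere, with score and age in the model, 0% of the runs and 0 members had an adjusted p under 0.05 in limma. At an unadjusted p under 0.05 stood 3.12% of the runs and 11 members (4.44%), 4 higher and 7 lower in right samples. In chr2:220404530-220404692 (2q35), left samples ran from 47.5% to 63.4% with a median of 57.0%, and right samples from 57.9% to 74.8% with a median of 62.0%. The groups overlapped, and the extremes were left 3 and right 9. The difference, right minus left, was 5.85 ± 1.84 points (standard error, n = 23, limma adjusted p = 0.975), and 3.79 points without these libraries. In chr9:140174189-140174310 (9q34.3) it was -7.38 ± 2.52 points, and -5.65 without them, and in chr14:24801022-24801181 (14q12) -4.72 ± 1.63 points (limma adjusted p = 0.975 for both, n = 23).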

How the data were processed

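Genomic DNA of the central amygdala nucleus of 23 rhesus monkeys was cut with MspI and sequenced after bisulfite conversion, per the labels' protocols. Bismark 0.11.1 and the human build hg19 are named by the submitters' processing notes. The authors deposited a single table with each methylation level as a fraction, to 2 decimals, for 444312 positions. For coverage filters and strand handling, the sources used here give nothing. Read counts are absent from the table, so depth is unknown and no interval was computed. Macaque reads on human coordinates are read best where the genomes are alike.

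Fractions were multiplied by 100. Runs, profiles, breaks and strand pairs were computed in Python 3.11.15 (numpy 2.4.6, pandas 2.3.3), figures drawn with matplotlib 3.10.9, and bands taken from circlize 0.4.16. An inner end position is the second position of a first pair or the last but one of a last pair. The tests of run levels used limma 3.58.1 (R 4.3.3 with the data.table package, 1.17.8; empirical Bayes with a trend, two-sided) and left out missing values. Tested runs held at least 3 positions with a range of 5 points or more over at least 20 monkeys, and tested positions had a range of 10 points or more. The fit and the shape rule were tested on simulated data.

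Runs were named by rule: the 5 largest steps, the 3 smallest p for each term, the 3 smallest and 3 largest SDs over monkeys, the most positions, and those nearest each limit. As no run was uniform, the most and least even runs were named instead. These, the strand-discordant runs, the 10q22.1 run and the 22q13.31 and 19p13.3 steps were named after their values were seen. The members, classes and lists were chosen with earlier results of these data known. Sex was not used, and the identifier series (12 monkeys r, 11 B) entered only as an alternative covariate.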

Additional observations from a re-analysis of the deposited data

How the results depend on the processing

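The 248 members became 39 when only positions with a value in every monkey were used (14 beginning at the same position), 95 with an SD limit of 5 points and 113 with means of 45 to 55%. The other definitions (gaps of 100 or 300 bp, values at 50% of positions, an SD limit of 20, left 3 and right 9 left out) gave 238 to 287, and leaving out each monkey gave 243 to 259. Leaving out inner end positions or positions under 10%, 2 choices made after seeing the data, gave 218 and 166 members, of which 207 and 102 were shared. Steps numbered 8 with a limit of 50 points, 15 to 21 under the other rules (10 shared with the 15 when strands were averaged or positions under 10% left out), and 14 to 16 without each monkey. Uniform runs numbered 0 under every planned rule and without each monkey, and 8 without positions under 10%. Members with an adjusted p under 0.05 numbered 0 for score, age and hemisphere under all alternatives run (other scales, range filters, variance priors, covariates, centred positions, each monkey left out). At an unadjusted p under 0.05, members for the score numbered 12 without left 3 and right 9 and 4 to 10 without each monkey (4 without right 11), and for age 16 and 1 to 13. For hemisphere they numbered 8 to 16 without each monkey. The cause of these shifts was not tested. No paired analysis was possible because left and right samples came from different monkeys, and replicate numbers only name samples. Depth is unknown, so a middle value from few reads cannot be told from one read deeply.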
